A study of Homo sapiens with 24 samples.

Results

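The genes described here are 9 complement and acute phase genes, SAA1, SAA2, C3, CFB, C1S, C1R, LCN2, CR2 and CD55, in mammary epithelial cells with an inducible MYC protein. They were found in the count table by matching each row's Ensembl identifier, without its version, to these symbols, and all 9 were found among 60668 rows. All 9 were also among the 22158 genes that passed a filter on low counts and were tested. The genes were chosen by their measured levels in these same libraries, with earlier results in view, and which contrast prompted the choice is not recorded. Their changes are therefore given as a description, and whether a gene passed the threshold of the fit over all genes supports nothing about the set.

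MCF-10A is an immortalised, non-tumorigenic human mammary epithelial line. The MYC-ER line is MCF-10A with the genotype label MYC.ER, MYC joined to the oestrogen receptor's ligand-binding domain, a fusion that becomes active when 4-hydroxytamoxifen (4-OHT) binds it. The promoter that drives the fusion, and whether the line is a clone or a pool, are not given in the sources used here. Both lines grew in Matrigel in 3 dimensions and received 4-OHT at 1 µM for 0, 8, 24 or 48 h before a shared collection on day 5. This gave 8 groups of 3 libraries. The groups are MYC-ER 0 h, 8 h, 24 h and 48 h, and parental 0 h, 8 h, 24 h and 48 h, where the parental cells carry no fusion but received the same 4-OHT. No group received a vehicle alone for the treated hours, as far as the labels say. The wells were seeded in triplicate and nothing states that they came from separate cultures, so the spread between replicates may be technical.

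Complement is a cascade of blood proteins that marks surfaces for removal. The proteases C1R and C1S open its classical route, CFB carries the alternative route, and both routes cut C3, the protein on which all routes converge. CD55 on the cell surface breaks up the C3-cutting enzymes, and CR2 (CD21) is a receptor for C3 fragments best known on B cells and follicular dendritic cells. SAA1, SAA2 and LCN2 are secreted acute phase proteins, made mostly in liver during inflammation and also by epithelia in response to cytokines such as IL-1 and IL-6.

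Library totals ran from 136860029 to 182438505 counts. At 3 counts, the limit that a count of 0 allows was 0.0219 CPM in the smallest library, counting error alone, taking the plain total. All levels below are CPM, counts relative to a library's total after scaling of the totals by the TMM method. MYC itself, whose row may hold transcripts of the fusion, stood at 394, 378 and 388 CPM in MYC-ER cells at 0 h and at 795, 793 and 797 CPM at 8 h. It was lower than at 0 h at 24 h (312 to 329 CPM) and 48 h (244 to 253 CPM), and ran from 443 to 599 CPM in parental cells. The parental 0 h libraries stood apart from one another, with a chi-square per degree of freedom of 159 to 261 between replicates against 8.45 to 63.3 in the other groups, and all parental changes and all comparisons between the lines rest on them. Mitochondrial transcripts took 9.24 to 9.71% of the counts in the MYC-ER 0 h libraries and 3.86 to 7.78% in the other libraries, with the 3.86% in parental 0 h replicate 1. The epithelial markers taken were KRT5, KRT14, KRT17, TP63, CDH1, EPCAM, KRT8 and KRT18. They summed to 9520 to 15000 CPM in MYC-ER libraries and 16600 to 28100 CPM in parental ones. These sums hold genes that differed in opposite directions between the lines. At 0 h, 5 of the 8 passed the threshold as lower on the MYC-ER side (KRT14, KRT17, CDH1, EPCAM and KRT18). The 2 that passed as higher were TP63 and KRT8. The log2 difference was -3.96 for KRT14, -2.73 for KRT17 and 1.15 for KRT8. EPCAM was low in some libraries, from 1.73 to 77.8 CPM over all of them. B cell markers summed to at most 0.0982 CPM, with MS4A1 at 0 counts in every library. Hepatocyte markers summed to at most 0.527 CPM, with TTR at 0 in every library. Myeloid markers summed to 61.1 to 65.2 CPM at MYC-ER 0 h and 30.9 to 47.8 CPM in the other groups, with CSF1R the highest, while PTPRC did not exceed 0.0124 CPM and LYZ did not exceed 0.0633 CPM. Fibroblast markers summed to 370 to 377 CPM at MYC-ER 0 h and 77.3 to 133 CPM elsewhere, from COL1A1 and DCN, while COL1A2 did not exceed 0.0573 CPM. The myeloid and fibroblast sums were thus high in the group where most of the 9 genes were also high, and their part in those levels was not tested. In these bulk samples, fewer cells of a type and less RNA per cell cannot be told apart.

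The 9 genes showed 3 patterns over the groups, which the plot of levels by library shows gene by gene. SAA1, SAA2, C3, CFB, C1S, C1R and LCN2 stood high in MYC-ER cells before 4-OHT, fell at 8 h and 24 h, were lowest at 24 h, and stood higher again at 48 h. CR2 was at most 0.204 CPM before 4-OHT and was highest at 24 h. CD55 was highest at 8 h and lowest at 24 h. In parental cells the changes at 8 and 24 h were smaller in size than those of MYC-ER cells for each of the 9 genes, and the difference between the lines passed the threshold for all but LCN2 at 8 h. At 48 h SAA1, SAA2 and CFB fell in parental cells, with log2 changes of -1.26, -0.97 and -0.70. The MYC-ER values were -1.10, -0.64 and -0.10, where CFB did not pass the threshold.

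**Figure D1:**
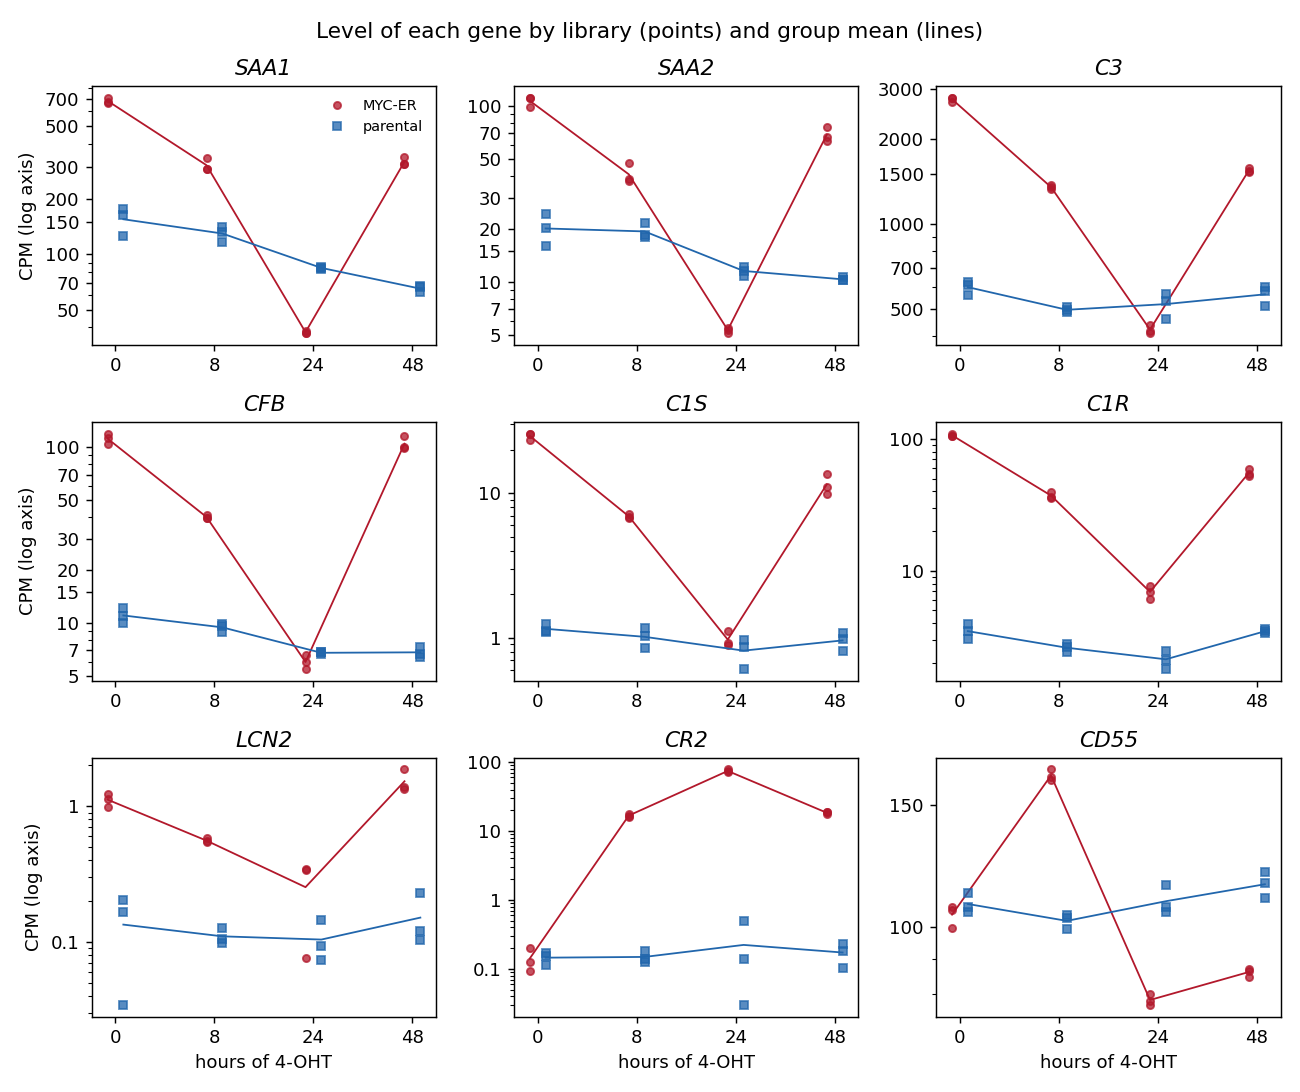
Level in CPM (log axis, different range in each panel) of the 9 genes against hours of 4-OHT (time points equally spaced, not to scale), with a point for each of the 24 libraries, circles for MYC-ER and squares for parental cells, and lines through the group means. In 7 panels the MYC-ER line dips at 24 h, in the CR2 panel it peaks there at 70.9 to 78.3 CPM, and in the CD55 panel it peaks at 8 h.

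SAA1 and SAA2 encode serum amyloid A, an apolipoprotein of high-density lipoprotein that rises steeply in blood during inflammation. On chromosome 11 (GRCh38, GENCODE v29) SAA1 lies at 18266174 to 18269977 on the plus strand and SAA2 at 18239223 to 18248643 on the minus strand, 17.5 kb apart. Their coding sequences are both 369 bases long and differ at 11 bases, an identity of 97%. Of the 220 windows of 150 bases in the SAA1 coding sequence, 37 also occur in SAA2, so reads could be assigned to either gene. The stretch from base 215 to base 304 of the coding sequence is shown because it holds 9 of the 11 differences. Transcript parts outside the coding sequence were not compared. Differing bases are in capitals.
SAA1: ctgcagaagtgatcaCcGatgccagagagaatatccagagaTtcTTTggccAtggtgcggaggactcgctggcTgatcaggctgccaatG
SAA2: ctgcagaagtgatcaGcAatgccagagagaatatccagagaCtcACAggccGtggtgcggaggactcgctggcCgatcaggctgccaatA

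SAA1 stood at 674, 663 and 711 CPM in MYC-ER cells at 0 h. It stood at 335, 290 and 290 CPM at 8 h, at 37.4, 37.3 and 38.4 CPM at 24 h, and at 309, 310 and 337 CPM at 48 h. The 8 h and 48 h values overlapped, and the other MYC-ER groups did not overlap one another. In parental cells SAA1 was 164, 125 and 176 CPM at 0 h and 66.0, 62.2 and 66.8 CPM at 48 h, with the 8 h and 24 h libraries between 83.5 and 140 CPM. The lowest SAA1 levels of all were those of MYC-ER cells at 24 h, below every parental library. The log2 change from 0 h in MYC-ER cells was -1.16 (SE 0.0909) at 8 h, -4.18 (SE 0.102) at 24 h and -1.10 (SE 0.0908) at 48 h. In parental cells it was -0.26 (SE 0.0901), -0.88 (SE 0.0908) and -1.26 (SE 0.0916) at the same times.

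SAA2 had the same order of groups in MYC-ER cells. It stood at 111, 99.3 and 112 CPM in MYC-ER cells at 0 h, at 47.3, 38.3 and 37.3 CPM at 8 h, at 5.49, 5.11 and 5.35 CPM at 24 h, and at 63.1, 67.0 and 76.4 CPM at 48 h. None of these groups overlapped. In parental cells SAA2 ran from 16.0 to 24.2 CPM at 0 h and from 10.2 to 10.6 CPM at 48 h. Its log2 change in MYC-ER cells was -1.39 (SE 0.115) at 8 h, -4.34 (SE 0.132) at 24 h and -0.64 (SE 0.113) at 48 h. SAA2 counts were 15.7% ± 0.72 (SD, n = 3) of SAA1 counts at MYC-ER 0 h, 14.1% ± 0.515 at 24 h and 21.6% ± 1.13 at 48 h, and between 12.3% and 16.3% in the parental libraries. The ratio at 48 h lay above that of every other library. With SAA1, SAA2 and the read-through gene SAA2-SAA4 summed into a single row, the MYC-ER log2 change was -1.18 (SE 0.0928), -4.22 (SE 0.105) and -1.03 (SE 0.0925) at 8, 24 and 48 h. The annotated span of SAA2-SAA4 overlaps those of SAA2 and SAA4 and not that of SAA1. SAA2-SAA4 had 16.4, 13.2 and 16.1 CPM at MYC-ER 0 h and 0, 0 and 0.231 CPM at 24 h.

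LCN2 encodes lipocalin 2, which binds bacterial iron carriers. It lies on chromosome 9 at 128149071 to 128153455 (plus strand). It was low, at 0.992, 1.24 and 1.13 CPM in MYC-ER cells at 0 h, which is 171 to 218 counts. It stood at 0.542, 0.553 and 0.58 CPM at 8 h, at 0.338, 0.0758 and 0.346 CPM at 24 h, and at 1.38, 1.34 and 1.87 CPM at 48 h. Parental libraries ran from 0.0343 to 0.228 CPM, the lowest of them on 6 counts. All LCN2 libraries of MYC-ER 0, 8 and 48 h lay above the parental ones, whereas at 24 h replicate 2 lay among them. The log2 change in MYC-ER cells was -1.0 (SE 0.43) at 8 h and -2.14 (SE 0.451) at 24 h. At 48 h it was 0.45 (SE 0.419), which did not pass the threshold. The call at 8 h was near the threshold (adjusted p 0.0455, edgeR) and was lost when any of the 6 libraries compared was left out, with adjusted p from 0.0573 to 0.105.

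RefSeq promoter entries (GRCh38.p14) were matched for 5 of the 9 genes, CFB, C1R, LCN2, CR2 and CD55. The 250 bases before the annotated start were searched on both strands for 5 motifs, namely the E-box CACGTG that MYC with MAX binds, the STAT motif TTCNNNGAA, the C/EBP motif TTGCNNAA, the interferon-stimulated response element (ISRE) and an NF-kB consensus. Positions count back from the annotated start, with -1 the base before it. A match describes letters and is not evidence of binding. The LCN2 window is shown because it holds 2 motifs of acute phase factors, in capitals and not overlapping. The NF-kB consensus lies at -175 to -166 (present in 5.21% of 35116 promoters) and a C/EBP motif at -143 to -136 (9.05%).
LCN2, chr9:128149203-128149452, plus strand: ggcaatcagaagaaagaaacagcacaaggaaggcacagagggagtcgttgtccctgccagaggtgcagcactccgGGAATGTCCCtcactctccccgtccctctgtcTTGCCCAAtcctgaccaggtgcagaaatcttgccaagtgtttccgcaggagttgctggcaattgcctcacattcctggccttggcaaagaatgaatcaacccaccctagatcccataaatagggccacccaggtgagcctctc

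C1R and C1S encode the paired serine proteases of the C1 complex. They converge on chromosome 12, with C1S at 6988259 to 7071032 (plus strand) and C1R at 7080199 to 7092607 (minus strand), 9.17 kb apart. C1R stood at 105, 105 and 110 CPM in MYC-ER cells at 0 h, at 39.7, 35.5 and 36.4 CPM at 8 h, at 6.13, 6.92 and 7.70 CPM at 24 h, and at 52.4, 54.7 and 59.5 CPM at 48 h. Parental libraries ran from 1.80 to 3.93 CPM, so every MYC-ER library lay above every parental one, also at the 24 h low. In MYC-ER cells the log2 change was -1.52 (SE 0.0952), -3.95 (SE 0.106) and -0.94 (SE 0.0937) at 8, 24 and 48 h. C1RL, a neighbour whose annotated span overlaps that of C1R on the same strand, ran from 15.8 to 59.3 CPM over the group means, and reads from the shared stretch may have been counted to either gene.

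C1S stood at 23.2, 25.5 and 25.8 CPM in MYC-ER cells at 0 h, at 6.75, 7.12 and 6.87 CPM at 8 h, at 0.914, 1.11 and 0.891 CPM at 24 h, and at 9.83, 11 and 13.6 CPM at 48 h. Parental libraries ran from 0.609 to 1.25 CPM. At 24 h the MYC-ER libraries therefore lay inside the parental range, unlike those of C1R. The log2 change in MYC-ER cells was -1.85 (SE 0.147), -4.68 (SE 0.169) and -1.11 (SE 0.143) at 8, 24 and 48 h, the largest fall of the 9 genes at 8 and 24 h. C1S counts were 23.3% ± 1.11 (SD, n = 3) of C1R counts at MYC-ER 0 h and 14.2% ± 2.33 at MYC-ER 24 h, and from 23.6% to 53.7% in parental libraries. C1R matched 2 RefSeq promoter entries. The entry that starts farther upstream holds a C/EBP motif at -106 to -99, and the other holds a C/EBP motif at -167 to -160 and a STAT motif at -86 to -78.

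C3 lies on chromosome 19 at 6677704 to 6730562 (minus strand). It stood at 2700, 2800 and 2790 CPM in MYC-ER cells at 0 h, at 1350, 1330 and 1370 CPM at 8 h, at 438, 419 and 411 CPM at 24 h, and at 1540, 1530 and 1580 CPM at 48 h. Parental C3 ran from 462 to 621 CPM over all 12 libraries, and the MYC-ER libraries at 24 h lay below all of these. In MYC-ER cells the log2 change was -1.03 (SE 0.0660), -2.71 (SE 0.0697) and -0.83 (SE 0.0658) at 8, 24 and 48 h. Per kilobase of transcript, SAA1 was higher than C3 at MYC-ER 0 h, with levels of 1010 and 525 CPM per kb, and C1R and CFB stood at 40.1 and 39.3 CPM per kb.

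CFB encodes factor B, the protease of the alternative route, and lies on chromosome 6 at 31945650 to 31952084 (plus strand). It stood at 104, 113 and 120 CPM in MYC-ER cells at 0 h, at 41.1, 39.9 and 39.6 CPM at 8 h, at 5.49, 6.0 and 6.55 CPM at 24 h, and at 99.2, 100 and 116 CPM at 48 h. The 0 h and 48 h libraries overlapped, and at 24 h CFB was at or below its lowest parental levels. The parental libraries ran from 6.42 to 12.2 CPM, and among them only parental 48 h replicate 2 lay below the highest MYC-ER library of 24 h. The log2 change in MYC-ER cells was -1.48 (SE 0.0780) at 8 h and -4.22 (SE 0.0883) at 24 h. At 48 h it was -0.10 (SE 0.0761, 95% interval -0.25 to 0.05), which did not pass the threshold and turned to 0.066 with scaling by library size alone. C2, whose end overlaps the start of CFB, did not exceed a group mean of 0.123 CPM. The CFB window is shown for 2 matches, in capitals and not overlapping. The ISRE lies at -140 to -131, read on the minus strand (3.02% of promoters), and the STAT motif at -92 to -84 (6.57%).
CFB, chr6:31945845-31946094, plus strand: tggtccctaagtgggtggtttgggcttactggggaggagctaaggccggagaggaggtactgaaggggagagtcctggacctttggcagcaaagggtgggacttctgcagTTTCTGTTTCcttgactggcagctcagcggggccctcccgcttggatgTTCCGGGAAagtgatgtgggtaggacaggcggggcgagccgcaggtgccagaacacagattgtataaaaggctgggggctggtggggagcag

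CR2 and CD55 are neighbours in the complement regulator cluster of chromosome 1. CD55 lies at 207321376 to 207386804 and CR2 at 207454230 to 207489895, both on the plus strand and 67.4 kb apart. Their promoter windows are shown because the genes are neighbours with different time courses. The CR2 window holds the E-box CACGTG, in capitals, at -45 to -40, a motif present in 6.34% of the 35116 promoters. The CD55 window holds none of the 5 motifs.
CR2, chr1:207454078-207454327, plus strand: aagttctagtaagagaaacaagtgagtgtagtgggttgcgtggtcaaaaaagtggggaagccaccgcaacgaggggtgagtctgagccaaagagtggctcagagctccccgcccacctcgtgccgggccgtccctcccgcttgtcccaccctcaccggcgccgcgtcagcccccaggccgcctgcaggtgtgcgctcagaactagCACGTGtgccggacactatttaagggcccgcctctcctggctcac
CD55, chr1:207321428-207321677, plus strand: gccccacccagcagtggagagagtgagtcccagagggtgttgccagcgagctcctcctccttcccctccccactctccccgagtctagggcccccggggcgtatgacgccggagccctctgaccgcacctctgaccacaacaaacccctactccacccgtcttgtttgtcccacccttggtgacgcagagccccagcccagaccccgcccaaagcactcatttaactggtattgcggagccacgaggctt

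CR2 stood at 0.0928, 0.204 and 0.128 CPM in MYC-ER cells at 0 h, on 16 to 36 counts a library. It stood at 17.6, 16.6 and 16.1 CPM at 8 h, at 78.3, 74.3 and 70.9 CPM at 24 h, and at 18.6, 19.2 and 17.5 CPM at 48 h. The 8 h and 48 h libraries overlapped, and both groups lay far below the 24 h group and far above 0 h. Parental CR2 ran from 0.0301 to 0.499 CPM over its 12 libraries, with both extremes at 24 h, on 5 and 80 counts. In MYC-ER cells the log2 change was 6.87 (SE 0.39) at 8 h, 9.03 (SE 0.409) at 24 h and 7.01 (SE 0.391) at 48 h. No parental contrast of CR2 passed the threshold, and the value at 24 h, 0.61 (SE 0.504), was 1.14 without replicate 1 of that group, where it passed (adjusted p 0.0194, edgeR), and -0.81 without replicate 3. The B cell marker MS4A1 had no counts in the libraries where CR2 was high.

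CD55 stood at 99.7, 107 and 106 CPM in MYC-ER cells at 0 h, at 169, 163 and 165 CPM at 8 h, at 80.1, 77.2 and 78.1 CPM at 24 h, and at 87.1, 84.8 and 86.5 CPM at 48 h. The 8 h libraries lay above all other libraries of either line, and those of 24 h and 48 h lay below all others without overlapping each other. Parental CD55 ran from 99.3 to 120 CPM, with the 8 h libraries (99.3, 104 and 103 CPM) below all other parental ones and the other 3 groups overlapping. In MYC-ER cells the log2 change was 0.67 (SE 0.0442), -0.41 (SE 0.0442) and -0.27 (SE 0.0441) at 8, 24 and 48 h. With scaling by library size alone, the 48 h value was -0.11 and no longer passed (adjusted p 0.0529, edgeR). Removing each library's trend on GC content turned the parental changes of CD55 to -0.26, -0.25 and -0.16 at 8, 24 and 48 h, all of which then passed the threshold, against -0.077, 0.018 and 0.10 without it.

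Before 4-OHT the lines already differed. The log2 difference of MYC-ER from parental cells at 0 h was 4.94 (SE 0.112) for C1R and 4.43 (SE 0.166) for C1S. It was 3.34 (SE 0.0842) for CFB, 3.06 (SE 0.476) for LCN2, 2.41 (SE 0.119) for SAA2, 2.21 (SE 0.0683) for C3 and 2.14 (SE 0.0936) for SAA1. CR2 and CD55 differed by -0.039 (SE 0.538) and -0.048 (SE 0.0440), which did not pass the threshold. With the GC trend removed, CD55 was -0.24 and passed (adjusted p 0.000749, edgeR). Of the 9 genes, 7 passed the threshold as higher in MYC-ER cells and 0 as lower, whereas 31.6% of all genes tested passed as higher and 32.7% as lower. The median difference was 2.41 over the 9 genes and 0 over all genes, on the log2 scale.

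In MYC-ER cells at 8 h, 2 of the 9 genes passed the threshold as higher (CR2 and CD55) and 7 as lower, with a background of 32.2% of all genes higher and 35.4% lower. At 24 h, 1 was higher (CR2) and 8 were lower, against 30.4% and 31.2% of all genes. At 48 h, 1 was higher (CR2) and 6 were lower, against 23.4% and 20.7%. CFB and LCN2 were the 2 genes that did not pass at 48 h. The median log2 change of the 9 genes was -1.16, -3.95 and -0.64 at 8, 24 and 48 h, beside -0.10, -0.015 and 0.029 over all genes. These contrasts share the 0 h libraries.

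**Figure D2:**
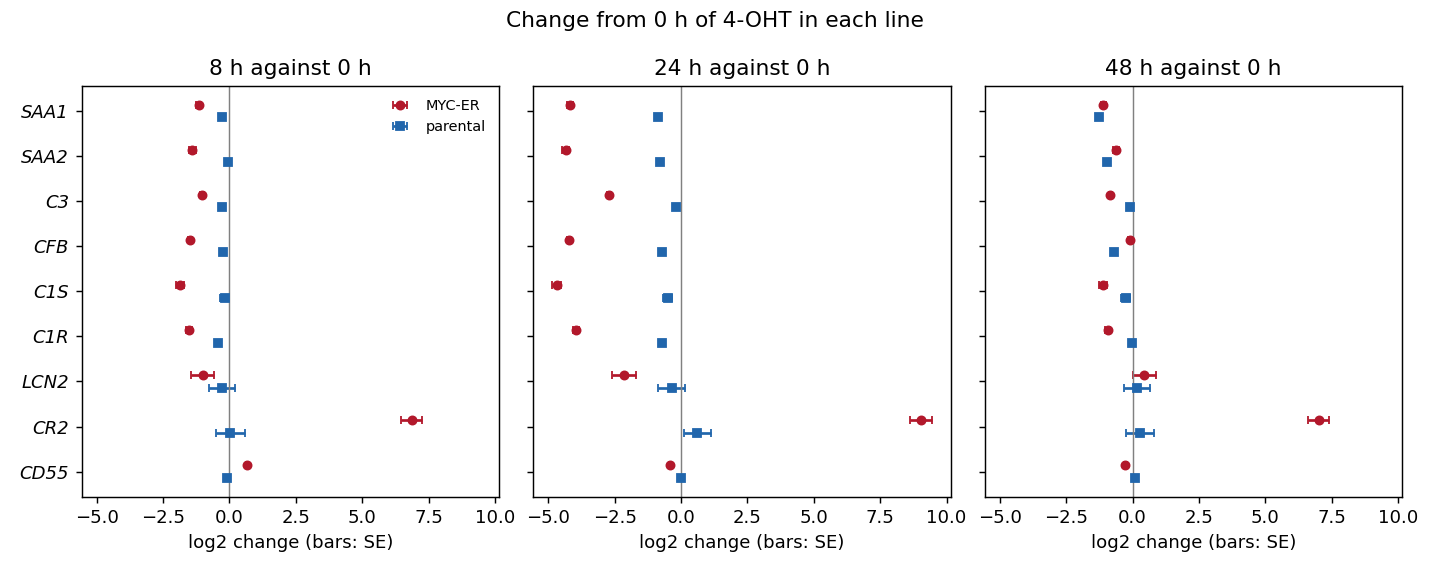
Log2 change from 0 h of 4-OHT (horizontal axis, with bars for the standard error of the fit) of the 9 genes at 8, 24 and 48 h, circles for MYC-ER and squares for parental cells. The parental points lie between -1.26 and 0.61, while the MYC-ER points spread at 24 h from -4.68 for C1S to 9.03 for CR2.

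Parental cells lack the fusion and received the same 4-OHT. The cause of their changes was not tested. At 8 h, 0 of the 9 genes passed the threshold as higher and 4 as lower (SAA1, C3, CFB and C1R), with a background of 15.0% and 16.0% of all genes. At 24 h, 0 were higher and 6 lower, against 21.2% and 21.7%. These were SAA1, SAA2 at -0.80 (SE 0.116), CFB at -0.71 (SE 0.0804), C1R at -0.71 (SE 0.106), C1S at -0.50 (SE 0.159) and C3 at -0.20 (SE 0.0654). At 48 h, 0 were higher and 3 lower, against 20.4% and 20.1%, namely SAA1, SAA2 at -0.97 (SE 0.117) and CFB at -0.70 (SE 0.0804). The 4 calls at 8 h became 2 without parental 0 h replicate 1, without parental 0 h replicate 3 or without parental 8 h replicate 2, and 0 in a fit of only the parental 0 h and 8 h libraries. Over all genes, the fits without these libraries called 4720 of 22751, 4929 of 22762 and 5528 of 22844. The fit of only those 2 groups called 1452 of 19596, against 6870 of 22158 with all libraries. The call of C3 at 24 h was lost without parental 0 h replicate 1 or 3 or parental 24 h replicate 2 (adjusted p 0.0548, 0.0889 and 0.138, edgeR), and its change was 0.0039 with the GC trend removed. That of C1S was lost without parental 0 h replicate 1 or parental 24 h replicate 1 (adjusted p 0.0584 and 0.109). In a fit of only the parental 0 h and 24 h libraries, C3 and C1S also lost their calls (adjusted p 0.189 and 0.109, edgeR). That fit called 4923 of 19581 genes, against 9503 of 22158 with all libraries.

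The difference between the lines in their change from 0 h, MYC-ER less parental, passed the threshold below 0 for 6 of the 9 genes at 8 h and above 0 for 2, against 27.8% and 27.3% of all genes. At 24 h it was below 0 for 8 and above for 1, against 26.8% and 27.7%. At 48 h it was below 0 for 4 (C3, C1S, C1R and CD55) and above for 2 (CFB and CR2), against 21.4% and 23.6%. SAA1 and SAA2 did not pass at 48 h, with values of 0.16 (SE 0.127) and 0.32 (SE 0.162). Without parental 0 h replicate 2 both passed, at 0.29 and 0.46 (adjusted p 0.0118 and 0.00758, edgeR), and SAA2 also passed with library size alone (0.42, adjusted p 0.0339). A fit that takes out the trend over GC content gave 0.48 for SAA2 (adjusted p 0.0304). CD55 passed below 0 at 24 h and 48 h with values of -0.43 (SE 0.0624) and -0.37 (SE 0.0623), which became -0.16 and -0.047 and no longer passed with the GC trend removed (adjusted p 0.0824 and 0.679, edgeR).

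The genes whose levels followed each member most closely over the 24 libraries were found by Pearson r of log2 CPM among 10767 genes with at least 10 CPM in some group (10768 for LCN2). The libraries share 8 group means, so r is a description. SAA1 and SAA2 were each other's closest gene at 0.988, and BEST2 was second for both at 0.977 and 0.971. C3 was closest to STAT6, a transcription factor of IL-4 signalling, at 0.987, then to C1S at 0.980 and TLE1 at 0.977. C1S was closest to C3 at 0.980, GPNMB at 0.980 and CFB at 0.979. CFB was closest to PDZK1IP1 at 0.981, C1S at 0.979 and GFPT2 at 0.964. C1R was closest to SERPINA3, the acute phase protein alpha-1-antichymotrypsin, at 0.985, then to CTSF at 0.981 and CDK20 at 0.980. LCN2 was closest to CHI3L2 at 0.936, then to ZNF496 at 0.925 and NOD2, a bacterial sensor, at 0.924. CR2 was closest to DDN at 0.960, RSL24D1 at 0.959 and PPM1M at 0.958. CD55 was closest to MYO9B at 0.942, with MAX, the partner of MYC, second at 0.940. Among the 9 genes, r ran from 0.718 to 0.988 between pairs of the 7 that fell at 8 and 24 h, from -0.104 to 0.400 between CR2 and those 7, and was -0.178 between CR2 and CD55.

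Other genes of the pathways came from 9 lists with 96 further genes, of which 63 passed the low-count filter. In MYC-ER cells 18 of the 63 passed the threshold as higher and 31 as lower at 8 h, 14 and 36 at 24 h, and 31 and 15 at 48 h. The shares of all genes were 32.2% and 35.4%, 30.4% and 31.2%, and 23.4% and 20.7%. Their median log2 change was -0.41, -0.66 and 0.27. Between the lines at 0 h, 27 were higher and 22 lower in MYC-ER cells, against 31.6% and 32.7% of all genes. In parental cells 12 were higher and 12 lower at 8 h, 14 and 15 at 24 h, and 18 and 13 at 48 h, against 15.0% and 16.0%, 21.2% and 21.7%, and 20.4% and 20.1% of all genes. The parental sums of 24, 29 and 31 became 7, 16 and 17 in fits of only the groups compared. Calls over all genes fell too in those fits, to 1452 of 19596, 4923 of 19581 and 3274 of 19680. The fit of all libraries had called 6870, 9503 and 8978 of 22158.

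C1QA, C1QB and C1QC of the classical route, MBL2, MASP1 and FCN1 of the lectin route, and C6, C8A and C8B of the terminal complex had 0 counts in every library, so C1R and C1S were measured with no counts of the C1q chains. Of the other 7 genes of the classical route, 4 were tested, and 3 of them (C1RL, C4A and C4B) fell at 8 h and were higher than at 0 h at 48 h. The shares of all genes were 35.4% lower at 8 h and 23.4% higher at 48 h. C4A stood at 2.97 ± 0.126 CPM at MYC-ER 0 h, 1.01 ± 0.184 at 8 h and 12.9 ± 0.71 at 48 h (SD, n = 3). C4B ran in parallel at 2.83 ± 0.0506, 0.889 ± 0.211 and 14.5 ± 0.927 CPM, and the near-identical copies cannot be told apart with confidence. C1RL fell at 8 h by 1.33 on the log2 scale (SE 0.0793, adjusted p 1.74e-12, edgeR).

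Among soluble regulators, all 6 tested of 12 fell at 8 h. At 24 h 1 was higher and 4 lower, and at 48 h 3 were higher and 0 lower. The shares of all genes higher and lower were 32.2% and 35.4% at 8 h, 30.4% and 31.2% at 24 h, and 23.4% and 20.7% at 48 h. CLU, or clusterin, was higher at 48 h than at 0 h by 1.41 on the log2 scale (SE 0.114, adjusted p 1.37e-09, edgeR). Among the membrane regulators other than CD55, 4 of 5 were tested, with 2 higher and 2 lower at 8 h and 1 higher and 3 lower at 24 h. These counts stand against the same shares of all genes. CD59, which blocks the membrane attack complex, stood at 391 ± 5.77, 870 ± 21.3, 252 ± 12.5 and 316 ± 3.63 CPM in MYC-ER cells at 0, 8, 24 and 48 h (SD, n = 3), with the groups in the same order as for CD55. Its log2 change at 8 h was 1.16 (SE 0.0473, adjusted p 3.05e-15). CD46 was higher in MYC-ER than in parental cells at 0 h by 0.94 (SE 0.0908, adjusted p 7.06e-09).

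Among the receptors other than CR2, 6 of 7 were tested, with 1 higher and 3 lower at 8 h, 2 and 2 at 24 h and 3 and 2 at 48 h. The shares of all genes were 32.2% and 35.4%, 30.4% and 31.2%, and 23.4% and 20.7%. C5AR2, a receptor for C5a, stood at 45.8 ± 0.462, 8.8 ± 0.299, 0.895 ± 0.16 and 3.72 ± 0.965 CPM in MYC-ER cells at 0, 8, 24 and 48 h (SD, n = 3), so that at 48 h it was below its level at 8 h. Its log2 change at 24 h was -5.68 (SE 0.155, adjusted p 3.18e-18, edgeR).

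Among other acute phase proteins, 13 of 21 were tested, with 4 higher and 5 lower at 8 h, 3 and 7 at 24 h, and 7 and 2 at 48 h, against the same shares of all genes as above (32.2% and 35.4%, 30.4% and 31.2%, 23.4% and 20.7%). SERPINA3 stood at 789 ± 55.9, 305 ± 9.15, 28.1 ± 1.33 and 215 ± 4.74 CPM in MYC-ER cells at 0, 8, 24 and 48 h (SD, n = 3), and between 10.2 and 13.4 CPM over the parental group means. It was higher in MYC-ER than in parental cells at 0 h by 5.99 on the log2 scale (SE 0.0739, adjusted p 6.54e-23, edgeR). SERPINA1, or alpha-1-antitrypsin, was higher at 48 h than at 0 h by 1.62 (SE 0.0842, adjusted p 7.92e-13). S100A8 and S100A9, the subunits of calprotectin, went the other way between the lines, lower in MYC-ER cells at 0 h, with log2 differences of -2.11 (SE 0.124) and -3.38 (SE 0.134) and adjusted p of 1.95e-12 and 2.20e-15. HP, APCS and FGA had 0 counts in every library.

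Of the 26 cytokines, receptors, transcription factors and inhibitors in the list of acute phase signalling, 24 were tested. At 8 h 10 were higher and 10 lower, against 32.2% and 35.4% of all genes. At 24 h 4 were higher and 18 lower, against 30.4% and 31.2%, and at 48 h 11 and 9, against 23.4% and 20.7%. The median log2 change of this list at 24 h was -0.96. IL1R1, the receptor through which IL-1 signals, stood at 271 ± 8.23, 28.8 ± 1.46, 9.4 ± 0.683 and 49.4 ± 0.431 CPM in MYC-ER cells at 0, 8, 24 and 48 h (SD, n = 3), and fell at 24 h by 4.85 (SE 0.108, adjusted p 9.30e-20, edgeR). NFKBIZ, a co-factor of NF-kB at acute phase genes, stood at 75.8 ± 2.03, 12.7 ± 1.52, 9.69 ± 0.649 and 44.8 ± 1.06 CPM at the same times. NFKBIA, the NF-kB inhibitor that NF-kB itself induces, fell at 24 h by 1.86 (SE 0.0526, adjusted p 6.16e-18). RELB fell by 1.78 (SE 0.112, adjusted p 5.40e-12) and CEBPB by 1.93 (SE 0.101, adjusted p 2.26e-13) at 24 h. IL6R, the receptor of IL-6, was higher in MYC-ER than in parental cells at 0 h by 1.67 (SE 0.0593, adjusted p 3.42e-16). OSMR, the oncostatin M receptor, was higher at 8 h than at 0 h in MYC-ER cells by 2.23 (SE 0.103, adjusted p 2.21e-14). It rose in parental cells too, with group means of 74.2, 116, 138 and 136 CPM at 0, 8, 24 and 48 h. IL6 itself was below the low-count filter.

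**Figure D3:**
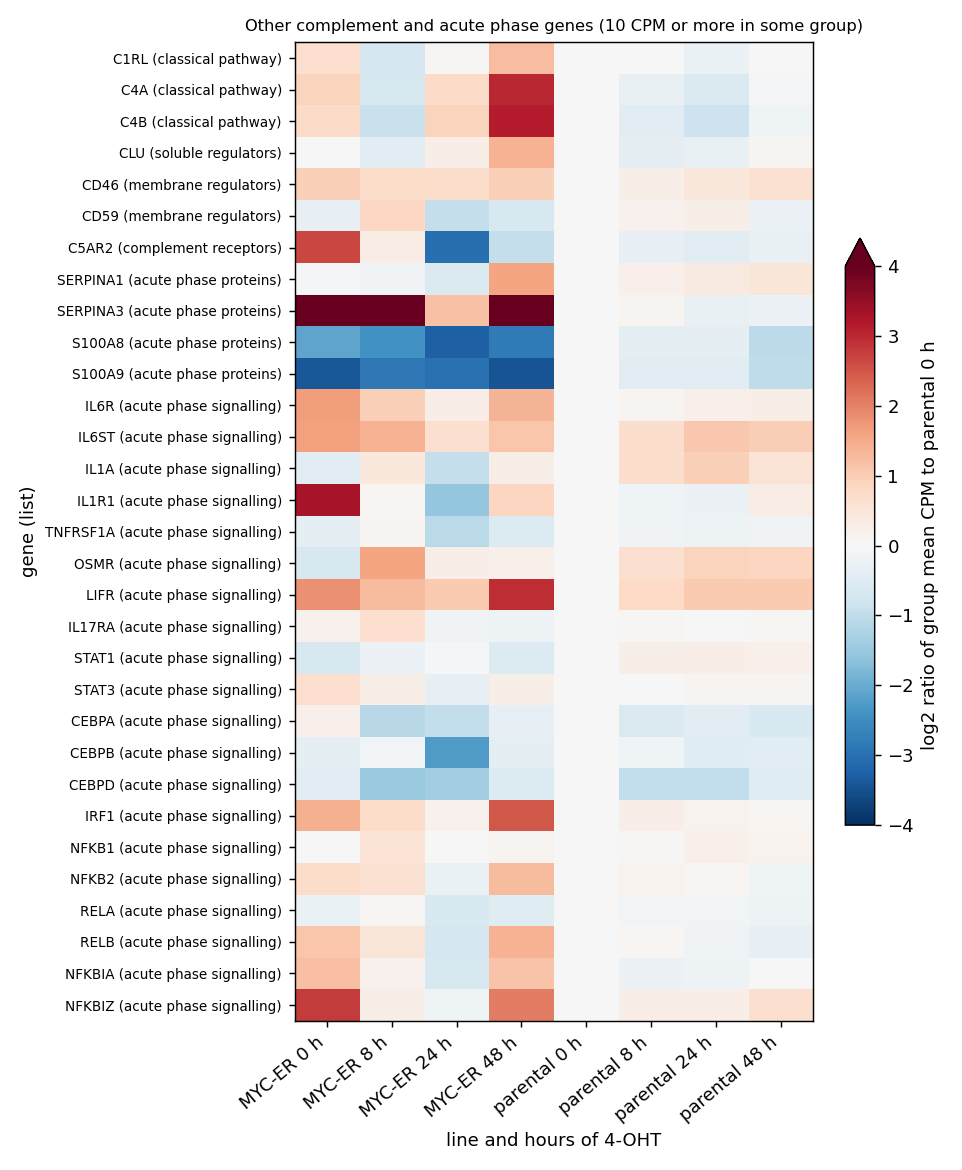
Log2 ratio of the group mean CPM to that of parental 0 h (colour, saturated above 4) for 31 other genes of the lists with at least 10 CPM in some group, with genes and their lists in rows and the 8 groups in columns. SERPINA3, IL1R1, NFKBIZ and C5AR2 are high at MYC-ER 0 h and far lower at 24 h, and S100A8 and S100A9 are low in all MYC-ER groups.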

How the data were processed

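RNA was measured by poly(A)-selected sequencing of 24 libraries. The authors deposited a table of estimated counts per gene, not normalised; per the submitters' processing notes, Trimmomatic 0.39, STAR, StringTie 2.1.3b and GRCh38 were used, in roles not stated. The treatment of strand and of multi-mapping reads is not given in the sources used here. Positions and GC content came from GENCODE v29 and promoters from RefSeq.

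The counts were fitted in edgeR 4.0.16 (R 4.3.3) with TMM scaling, filterByExpr and 8 group means over all libraries. The 10 contrasts were tested two-sided with the quasi-likelihood F test and Benjamini-Hochberg adjustment over 22158 genes, at a threshold of 0.05. Standard errors are those implied by the F statistic. The fit was tested on simulated counts, for the MYC-ER change and the interaction at 8 h only. The simulated spread was the same for every gene and group, so the uneven parental 0 h libraries were not simulated.

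The members and lists were chosen with earlier results of these data known. Named genes are the 9 members, SAA2-SAA4, MYC, list genes with at least 10 CPM in some group (values for at most 1 contrast, the largest past the threshold), list genes named as absent or below that level, and the 3 genes most like each member. Alternatives were other scalings, filters and tests, GC trend removal (lowess span 0.3), a fit of only the groups compared, a replicate block, SAA rows summed, and leaving out each library. Results for 2 list genes are not reported here.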

Additional observations from a re-analysis of the deposited data

Results flagged for a closer look

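The change from 0 h differed between the lines, by the line-by-time interaction (the MYC-ER log2 change minus the parental one, edgeR with Benjamini-Hochberg adjustment), in 23 of 27 cases, and both lines' 0 h libraries enter all of them. Of all genes tested, 27.3% passed above 0 and 27.8% below 0 at 8 h. The shares were 27.7% and 26.8% at 24 h, and 23.6% and 21.4% at 48 h. The 9 genes were chosen from these same libraries, so the count is a description. At 8 h the values were -0.90 for SAA1, -1.33 for SAA2, -0.77 for C3, -1.26 for CFB, -1.66 for C1S, -1.10 for C1R, 6.84 for CR2 and 0.75 for CD55, with adjusted p from 1.19e-09 to 3e-06. At 24 h they were -3.30 for SAA1, -3.53 for SAA2, -2.51 for C3, -3.52 for CFB, -4.17 for C1S, -3.24 for C1R, -1.78 for LCN2, 8.42 for CR2 and -0.43 for CD55. The value of LCN2 had the largest adjusted p, 0.0301, and no longer passed without MYC-ER 0 h replicate 2, MYC-ER 24 h replicate 2, parental 0 h replicate 2 or parental 24 h replicate 1 (adjusted p 0.0552 to 0.107). At 48 h they were -0.75 for C3, 0.60 for CFB, -0.85 for C1S, -0.94 for C1R, 6.74 for CR2 and -0.37 for CD55, with adjusted p from 1.32e-07 to 0.00232.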

How the results depend on the processing

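Of 1422 values of 90 member results under the alternatives, 1341 kept their direction and their side of the threshold, 42 lost the call, 12 gained it and 27 changed direction. Values that changed direction were counted only as such, also where they crossed the threshold. With the GC trend removed, CD55 at parental 24 and 48 h thus gained a call, and C3 at parental 24 h lost its call. In parental cells at 8 h, the 4 members called became 2 with no filter and 0 with only the groups compared. With the GC trend removed 2 were called, C1R and CD55. There SAA1, C3 and CFB lost the call and CD55 gained it. Over all genes, 5934 of 36454 were called with no filter and 5434 of 22158 with the GC trend removed. The main fit called 6870 of 22158. For the other pathway genes, 7, 16 and 17 were called at 8, 24 and 48 h in parental cells with only the groups compared. Those fits called 1452 of 19596, 4923 of 19581 and 3274 of 19680 genes. Leaving out a library gave 2 to 4 members and 14 to 28 other genes called in parental cells at 8 h. Over all genes, these fits called from 4720 of 22751 to 9166 of 22783. Results that changed direction did so as follows. Under library size alone they were CFB at MYC-ER 48 h (0.066) and C1R at parental 48 h (0.057); with the GC trend removed, CR2 at parental 8 h (-0.021), C3 at parental 24 and 48 h (0.0039 and 0.12), C1R at parental 48 h (0.13) and CD55 at parental 24 and 48 h (-0.25 and -0.16); with only the groups compared, C1R at parental 48 h (0.0035). With a library left out in turn, CR2 between the lines at 0 h ran from -0.40 to 0.19; in parental cells SAA2 at 8 h ran from -0.20 to 0.11, LCN2 from -0.74 to 0.16 (8 h), -0.81 to 0.10 (24 h) and -0.30 to 0.63 (48 h), CR2 from -0.15 to 0.17 (8 h), -0.81 to 1.14 (24 h) and -0.0066 to 0.51 (48 h), CD55 at 24 h from -0.022 to 0.063, and C1R at 48 h from -0.10 to 0.091; the interaction of LCN2 at 48 h ran from -0.17 to 0.75. The cause was not tested.

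Library size alone moved the median of all genes by 0.162 at MYC-ER 48 h, 0.109 at 24 h, -0.118 for the interaction at 8 h and 0.102 at 48 h, and 73.8% of the MYC-ER 48 h calls were then higher, against 53.0% (63.5% against 52.5% for the interaction at 48 h). CR2 and LCN2 do not reach 10 counts in every library and have no value under that filter. The deviations of same-numbered libraries from their group means had r from -0.264 to 0.417 (median 0.00302). Libraries with different numbers had r from -0.389 to 0.403 (median -0.0146). How the replicates were numbered is not stated, so whether the numbers pair them is not known. With the replicate block, 9, 9 and 7 members were called at 8, 24 and 48 h in MYC-ER cells and 4, 6 and 3 in parental cells. Of all 22158 genes, that fit called 14890, 13572 and 9692 in MYC-ER cells and 6838, 9410 and 8876 in parental cells. Depth limits CR2 in untreated and parental cells and LCN2 in parental cells.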
